A study of Homo sapiens with 14 samples.

Results

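Small nucleolar RNA host genes were followed through 14 RNA sequencing libraries of 2 human cancer cell lines. The set was chosen by symbol and holds every gene named SNHG with a number, together with GAS5, ZFAS1, EPB41L4A-AS1 and DANCR. This gave 32 genes of the 60683 listed, and no measured value was used to choose them. A549, a lung adenocarcinoma line, was left untreated, exposed for 10 days to 2 μM palbociclib, to 0.5 μM indisulam or to both at these doses, or exposed for 7 days to 0.5 μM PF-06873600. SUM159, a triple-negative breast cancer line, was left untreated or exposed for 7 days to 0.5 μM PF-06873600. Palbociclib inhibits the cell cycle kinases CDK4 and CDK6, PF-06873600 inhibits CDK2 as well, and indisulam makes the DCAF15 ubiquitin ligase degrade the splicing factor RBM39. Each of the 7 groups had 2 libraries, described as technical duplicates, so p-values measure only the spread between these libraries.

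Small nucleolar RNAs guide the chemical modification of ribosomal RNA. Box C/D RNAs direct methylation of the ribose and box H/ACA RNAs direct the conversion of uridine to pseudouridine, while their relatives in Cajal bodies guide modification of spliceosomal RNAs. Most of them in human cells lie in introns of a longer host transcript, and are freed from the excised intron when the host is spliced. The spliced host RNA of a non-coding host often has no long reading frame, and for several, GAS5 and SNHG1 among them, it is degraded by nonsense-mediated decay once ribosomes engage it. Many hosts also start transcription at a C followed by a run of pyrimidines, the terminal oligopyrimidine (TOP) start that ribosomal protein genes carry.

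Of the 32 hosts, 31 enclosed at least 1 of 151 annotated small nucleolar or Cajal body RNA genes, and SNHG27 enclosed none. These were matched by position alone, since the RefSeq table used gives no strand for them. SNHG14, the long imprinted transcript of the Prader-Willi region, enclosed 84 of them, 83 being box C/D. GAS5 enclosed 11, SNHG1 9, SNHG17 5 and SNHG12 4. By the class of more than 50% of their RNAs, 14 hosts were box C/D hosts, 12 were box H/ACA hosts and 4, SNHG10, SNHG20, SNHG21 and SNHG22, were Cajal body hosts.

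A start window was found for 28 hosts in the RefSeq promoters of GRCh38.p14. The annotated start was a C in 11 of them (39.3%), against 15.0% of all 27305 promoters. A C at the start that opened a run of at least 5 pyrimidines was seen in 7 hosts (25.0%), against 4.04% of all promoters. The windows of all 7 are shown because the run differed in length among them, with SNHG1 and DANCR as hosts with a short run or none. Each window gives 20 bases before the annotated start and 20 from it, and capitals mark the C or T run that begins at the start.
SNHG5: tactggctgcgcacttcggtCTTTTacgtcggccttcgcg
ZFAS1: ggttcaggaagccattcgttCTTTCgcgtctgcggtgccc
SNHG32: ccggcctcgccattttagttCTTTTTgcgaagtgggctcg
SNHG19: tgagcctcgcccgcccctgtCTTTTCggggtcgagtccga
SNHG4: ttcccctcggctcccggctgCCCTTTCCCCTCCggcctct
SNHG12: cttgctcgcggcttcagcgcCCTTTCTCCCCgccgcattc
SNHG18: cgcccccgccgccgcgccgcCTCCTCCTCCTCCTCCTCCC
SNHG1: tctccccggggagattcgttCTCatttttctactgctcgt
DANCR: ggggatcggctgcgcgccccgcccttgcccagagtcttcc
The windows lie at chr6:85678714-85678753 (minus strand) for SNHG5, chr20:49278622-49278661 (plus) for ZFAS1, chr6:31834896-31834935 (plus) for SNHG32, chr16:2155339-2155378 (minus) for SNHG19, chr5:139274081-139274120 (plus) for SNHG4, chr1:28581854-28581893 (minus) for SNHG12, chr5:9546180-9546219 (plus) for SNHG18, chr11:62855866-62855905 (minus) for SNHG1 and chr4:52712374-52712413 (plus) for DANCR. The run held 21 letters in SNHG18, where it goes on past the window shown, 13 in SNHG4, 11 in SNHG12, 6 in SNHG32 and SNHG19, and 5 in SNHG5 and ZFAS1. In SNHG1 the C at the start opened a run of 3, and DANCR started at a G. A single annotated start was read per gene, so the letters describe that start and not the starts used in these cells. This start lay inside the GENCODE gene for 24 of the 28 hosts, and upstream of it by 1 base in SNHG4, 37 in SNHG3, 163 in GAS5 and 154975 in SNHG14.

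Each library held between 13060374 and 21149256 counts on genes. The chi-square per degree of freedom between duplicates was 10.5 in untreated A549 and 9.99 in untreated SUM159, and 1.66 to 5.47 in the treated groups, so the untreated pairs differed most. KRT8 and CDH1, epithelial markers, stood at 2126 and 156 CPM in untreated A549, where CPM scales a count to the total on genes in its library. CDH1 was near 0 in SUM159 (0.0905 CPM), where the mesenchymal marker VIM stood at 4162 CPM. KRT8 and VIM were not confined to 1 line, with KRT8 at 417 CPM in untreated SUM159 and VIM at 665 CPM in untreated A549. FN1, also mesenchymal, stood at 1626 CPM in untreated A549. Of the breast receptor genes, ESR1 and PGR were at or near 0 in untreated SUM159, and ERBB2 stood at 120 CPM, against 155 CPM in untreated A549. The alveolar markers NKX2-1, SFTPC and SFTPB were at or near 0 in A549, and the leukocyte gene PTPRC reached 9.62 CPM and the endothelial gene PECAM1 11.2 CPM in untreated SUM159. Exons of 18 hosts overlapped exons of a gene on the other strand and exons of 10 overlapped another gene on the same strand, and how counting used strand is not given in the sources used here.

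The hosts spanned a wide range of levels. Of the 32, 27 had more than 3 counts in every library. SNHG18 and SNHG31 passed 3 counts in only 4 libraries each, SNHG22 never rose above 3, and SNHG27 and SNHG28 had 0 counts throughout. Per kilobase of annotated exon, SNHG29 was the highest in both untreated lines, at 122 ± 15.4 CPM per kb in A549 and 44.3 ± 0.107 in SUM159 (mean ± SD, n = 2 here and below). SNHG29, at chr17:16438767-16480249, carries SNORD49A, SNORD49B and SNORD65, and its exons overlap LRRC75A on the other strand. GAS5, named for its accumulation in growth-arrested cells and located at chr1:173858559-173868882, followed in A549 at 52.5 ± 4.74 CPM per kb, and stood at 21.5 ± 3.33 in SUM159. Among the 27 detected throughout, the level per length was lowest for SNHG26, at 0.428 ± 0.101 CPM per kb in A549 and 0.236 ± 0.0934 in SUM159. SNHG14 was also low on this scale, at 0.478 ± 0.0565 CPM per kb in A549, since its annotated exons span 122.609 kb.

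**Figure D1:**
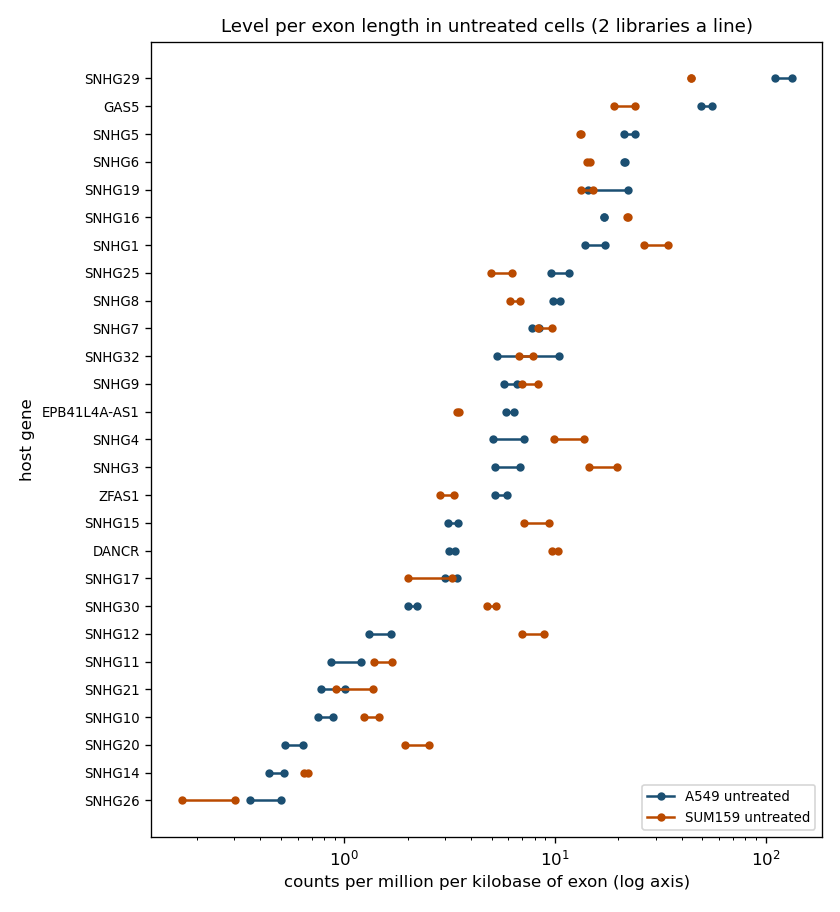
Level of the 27 hosts detected in every library, in CPM per kilobase of annotated exon on a log axis, with 1 point per untreated library of A549 (blue) or SUM159 (orange). SNHG29 and GAS5 lead in A549, and the 2 lines stand apart for most hosts.

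Untreated SUM159 and untreated A549 differed in most hosts, at shares near those of all genes. In the model of both lines, 13 of 28 tested hosts were higher in SUM159 and 9 were lower, while 41.9% of all 17279 genes tested were higher and 36.8% lower. Higher in SUM159 were DANCR, a host of SNORA26, SNHG12, a host of SNORA16A, SNORA44, SNORA61 and SNORD99, SNHG3 with SNORA73A and SNORA73B, SNHG1, SNHG4, SNHG10, SNHG11, SNHG14, SNHG15, SNHG16, SNHG18, SNHG20 and SNHG30. Lower in SUM159 were SNHG29, GAS5, ZFAS1, EPB41L4A-AS1, SNHG5, SNHG6, SNHG8, SNHG25 and SNHG26.
SNHG12 stood at 7.07 and 5.60 CPM in untreated A549 and at 29.8 and 37.8 CPM in untreated SUM159, 5.33-fold higher (log2 fold change 2.41, SE 0.16, edgeR adjusted p = 5.61e-11). DANCR stood at 32.1 and 34.0 CPM against 105 and 99.0 CPM in SUM159, 3.09-fold higher (edgeR adjusted p = 2.64e-14). In both genes the untreated SUM159 libraries lay above the untreated A549 libraries, which adds no support to calls already made. SNHG29 went the other way, from 992 and 1187 CPM in A549 to 397 and 396 CPM in SUM159 (log2 fold change -1.46, SE 0.073, edgeR adjusted p = 6.98e-13). SNHG18 had 0 counts in both untreated A549 libraries and 63 and 75 counts in SUM159, at least 21.0-fold higher against a floor of 3 counts per library. The lines differ in tissue, genotype and medium as well, and these cannot be told apart here.

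Summed over the 32 hosts, the level was highest in untreated A549, at 2282 ± 162 CPM, and lowest in SUM159 under PF-06873600. In A549 the sum was 2072 ± 8.0 CPM with palbociclib, 2021 ± 31.0 with indisulam, 1959 ± 87.5 with the combination and 1485 ± 14.6 with PF-06873600. In SUM159 it went from 1558 ± 107 CPM to 974 ± 32.7 with PF-06873600. With PF-06873600 the sum was 0.651 times the untreated one in A549 and 0.625 times in SUM159, close values with different make-up. In A549 it was 0.908 times the untreated sum with palbociclib, 0.886 times with indisulam and 0.859 times with the combination. In these bulk libraries a lower level in each cell and fewer cells that express a gene cannot be told apart.
SNHG29 alone was 47.7% of the sum in untreated A549 and 25.5% in untreated SUM159. Its fall with PF-06873600 was 74.5% of the net fall of the sum in A549, and that of GAS5 19.0%. In SUM159, SNHG29 accounted for 22.4%, SNHG1 for 13.3%, DANCR for 11.2% and GAS5 for 6.83%. SNHG29 and GAS5 were then left out, a choice made after their values were seen. Under PF-06873600 the remaining sum was 0.944 times the untreated one in A549 and 0.608 times in SUM159. In A549 the remaining sum was 1.06 times the untreated one with palbociclib, 0.958 times with indisulam and 0.927 times with the combination.

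**Figure D2:**
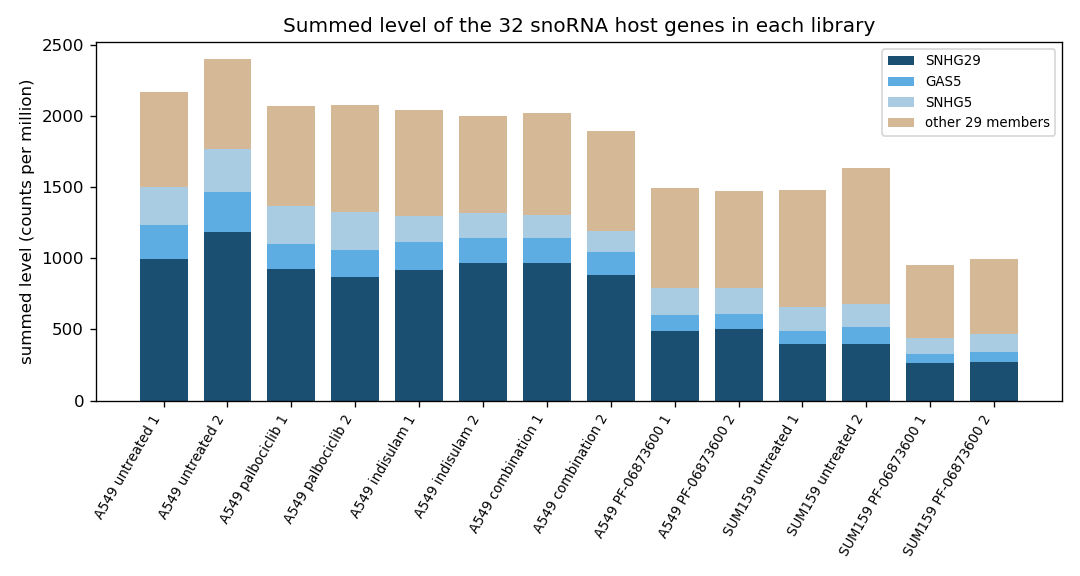
Summed level of the 32 hosts in CPM for each of the 14 libraries, with bars split into SNHG29, GAS5, SNHG5 and the other 29 hosts. SNHG29 makes up 47.7% of the untreated A549 sum, and in SUM159 the largest block is that of the other hosts.

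Palbociclib alone changed few hosts. With 10 days of the drug, 2 of 27 tested hosts were higher and 3 lower, where 8.3% of all 15780 genes tested were higher and 7.4% lower. The median log2 fold change of the hosts was 0.06, and that of all genes tested was -0.01. The host median was -0.03 without untreated library 2, -0.05 without palbociclib library 2, 0.14 without untreated library 1 and 0.16 without palbociclib library 1. SNHG14 rose from 53.7 and 63.5 CPM to 107 in each of the 2 libraries (log2 fold change 0.87, SE 0.075, edgeR adjusted p = 3.15e-06). SNHG9, a short host of SNORA78, rose from 4.08 and 3.53 CPM to 7.50 and 5.25 (edgeR adjusted p = 0.0180). Among the lower hosts, GAS5 went from 243 and 276 CPM to 176 and 189 (log2 fold change -0.50, SE 0.076, edgeR adjusted p = 0.000401).
SNHG29 went from 992 and 1187 CPM to 926 and 871, and ZFAS1, which carries 3 box C/D RNAs of the SNORD12 family, from 43.2 and 49.2 CPM to 37.0 and 38.6. The SNHG29 fall (log2 fold change -0.28) was close to the gap between its untreated libraries. The number of higher hosts was 6 without untreated library 1 and 1 without untreated library 2, and the number of lower hosts was 1 without either palbociclib library. The calls of SNHG14 and GAS5 held in every alternative run, while that of ZFAS1 was lost in 10 of 17 alternatives and those of SNHG9 and SNHG29 in 4 of 17 each. Each of these 3 was lost without untreated library 2 and without palbociclib library 1, and those of ZFAS1 and SNHG29 also without palbociclib library 2.

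**Figure D3:**
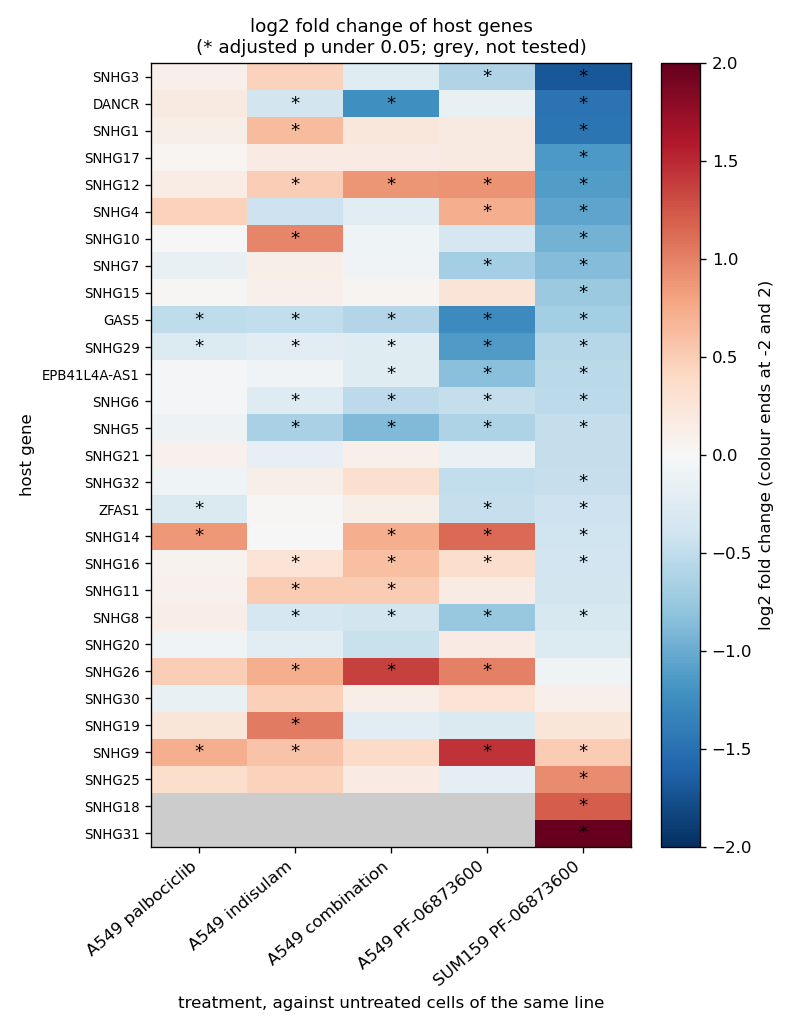
log2 fold change of 29 hosts (rows) under each treatment against untreated cells of the same line (columns), with red higher, blue lower, a star for an edgeR adjusted p under 0.05 and grey for not tested. SUM159 under PF-06873600 has 19 starred blue cells, the most of the 5 columns, and GAS5 and SNHG29 are blue in every column.

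Indisulam alone gave changes in both directions. Of 27 tested hosts 8 were higher and 6 lower, where 28% of all genes tested were higher and 17.5% lower. The median log2 fold change was 0.12 in the hosts and 0.08 in all genes tested. The host median was 0.04 with TMM scaling and 0.05 with DESeq2. With TMM scaling, 6 hosts were higher and 6 lower, and the share of higher genes among all genes called went from 61.6% to 50.4%.
SNHG19, a host of SNORD60 at chr16:2154792-2155405, stood at 13.6 and 8.80 CPM in untreated cells and at 24.6 and 21.6 with indisulam (2.06-fold, log2 fold change 1.05, SE 0.15, edgeR adjusted p = 6.21e-05). SNHG10, a host of the Cajal body RNA SCARNA13, stood at 4.83 and 4.07 CPM and rose to 9.19 and 8.26 (log2 fold change 0.97, edgeR adjusted p = 0.00325). SNHG1, at chr11:62851978-62855953, rose from 68.9 and 55.1 CPM to 104 and 88.0 (log2 fold change 0.63, edgeR adjusted p = 0.000818). The treated libraries lay above both untreated libraries in all 3 hosts, which adds no support since these hosts had been called already. SNHG26, SNHG9, SNHG11, SNHG12 and SNHG16 were the other higher hosts, with log2 fold changes from 0.28 to 0.72. The SNHG12 call was lost in 11 of 16 alternatives, that of SNHG11 in 7, and those of SNHG26 and SNHG9 in 3 each. All 4 were lost with DESeq2, without untreated library 2 and without indisulam library 1.
SNHG5, a host of SNORD50A and SNORD50B at chr6:85650491-85678932, was the host that fell most with indisulam among the called ones, from 267 and 303 CPM to 184 and 179 (log2 fold change -0.65, SE 0.067, edgeR adjusted p = 2.54e-06). DANCR went from 32.1 and 34.0 CPM to 25.4 and 25.8 (log2 fold change -0.37, edgeR adjusted p = 0.00171). GAS5 stood at 195 and 174 CPM (log2 fold change -0.49), again below both untreated libraries. SNHG8, SNHG6 and SNHG29 were also lower, by log2 fold changes of -0.34, -0.25 and -0.21. The number of higher hosts was 4 without untreated library 2, 4 without indisulam library 1 and 4 with DESeq2. The lower calls of SNHG5, DANCR, GAS5 and SNHG8 held in every alternative, and that of SNHG29 was lost without untreated library 2, without either indisulam library, without either PF-06873600 library and with the compared groups alone.

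With both drugs, 5 of 27 hosts were higher and 7 lower than in untreated cells, where 35.1% of all genes tested were higher and 30% lower. The median log2 fold change was 0.05 in the hosts and 0.05 in all genes tested. The host median was -0.08 without untreated library 2 or combination library 1, 0.01 without combination library 2, -0.03 with TMM scaling, 0.01 with DESeq2 and 0.11 with every gene kept.
DANCR, at chr4:52712325-52723623, fell furthest among the called hosts, to 14.3 and 14 CPM from 32.1 and 34.0 (log2 fold change -1.22, SE 0.085, edgeR adjusted p = 1.11e-08). SNHG5 fell to 162 and 148 CPM (log2 fold change -0.88, SE 0.068, edgeR adjusted p = 3.46e-08). GAS5 stood at 178 and 165 CPM (log2 fold change -0.59, edgeR adjusted p = 8.05e-06). All of these lay under the untreated libraries, which adds no support to calls already made. SNHG6, SNHG8, SNHG29 and EPB41L4A-AS1 fell by smaller amounts, with log2 fold changes from -0.52 to -0.24. The EPB41L4A-AS1 call was lost in 8 of 16 alternatives, among them those without untreated library 1, either combination library or either PF-06873600 library. That of SNHG29 was lost in 3, without untreated library 2, without combination library 2 and with the compared groups alone.
SNHG26, a host of SNORD93, rose from 3.74 and 2.67 CPM to 7.59 and 8.88 (2.58-fold, log2 fold change 1.36, SE 0.19, edgeR adjusted p = 1.71e-05). SNHG16, with SNORD1A, SNORD1B and SNORD1C, rose from 98.4 and 98.5 CPM to 150 and 149 (log2 fold change 0.61, SE 0.055, edgeR adjusted p = 2.17e-07). SNHG14 rose to 99.1 and 95.9 CPM (log2 fold change 0.73) and SNHG12 to 10.6 and 12.6 CPM (log2 fold change 0.88). Both treated libraries of each lay above the untreated pair, which again adds no support to the calls. SNHG11, which carries SNORA60 and SNORA71E, was the remaining higher host (log2 fold change 0.50), and its call was lost in 5 of 16 alternatives, among them those without untreated library 2 and without combination library 2. The number of higher hosts was 8 without untreated library 1.

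Set against each drug alone, the combination had less DANCR than either, and less SNHG19, SNHG10 and SNHG1 than indisulam alone, which had raised these 3 hosts. The rise with indisulam, the lower level against it and the interaction term below share the same 2 indisulam libraries. Against palbociclib, 4 hosts were higher and 6 lower (33.5% and 26.9% of all genes tested). Against indisulam, 3 were higher and 8 lower (22% and 23.9% of all genes tested). DANCR was lower against both, by log2 fold changes of -1.41 (SE 0.084, edgeR adjusted p = 2.74e-09) and -0.86 (SE 0.087, edgeR adjusted p = 1.91e-06). SNHG14 was higher than with indisulam alone (log2 fold change 0.74, edgeR adjusted p = 1.98e-06), and stood at 60.6 and 56.3 CPM in the indisulam libraries. SNHG16 and SNHG26 were higher than with either drug. SNHG5 and SNHG6 were lower than with either drug. Against palbociclib alone, ZFAS1 (0.41) and SNHG12 (0.72) were also higher and SNHG4 (-0.69), SNHG8 (-0.49) and SNHG19 (-0.46) lower, as log2 fold changes. SNHG7 was lower against indisulam alone (-0.20), a call lost in 10 of 16 alternatives.
SNHG19 stood at 13.3 and 13.1 CPM with palbociclib, 24.6 and 21.6 with indisulam and 9.86 and 9.33 with both. Against indisulam alone its log2 fold change was -1.27 (SE 0.15, edgeR adjusted p = 1.11e-05). SNHG10 was also highest with indisulam, while its palbociclib libraries lay on either side of the combination ones, with 2.97 and 5.80 CPM under palbociclib, 9.19 and 8.26 under indisulam and 4.33 and 4.05 under both. SNHG3, a host of SNORA73A and SNORA73B whose exons overlap RCC1 on the same strand, stood at 38.5 and 29.5 CPM with indisulam and at 22.5 and 18.9 with both (log2 fold change -0.72, edgeR adjusted p = 0.00691). SNHG1, at 71.8 and 73.6 CPM with both drugs, was also below the indisulam libraries (log2 fold change -0.40).
The interaction term asked whether the combination departed from the sum of the single-drug changes on the log2 scale. It was higher in 3 hosts and lower in 6 (10.7% and 14.5% of all genes tested). The largest departures were in SNHG19 (-1.50, SE 0.22, edgeR adjusted p = 0.000179), SNHG10 (-1.07, edgeR adjusted p = 0.0347) and DANCR (-1.05, SE 0.12, edgeR adjusted p = 1.25e-05). SNHG9, SNHG3 and SNHG1 followed at -0.92, -0.82 and -0.52. GAS5 (0.40), ZFAS1 (0.38) and SNHG16 (0.26) departed upward, and for GAS5 the combination fell less than the sum of its single-drug falls. The calls of SNHG19 and DANCR held in every alternative, and each of the other 7 was lost in at least 3 of them.
Counts of hosts in these tests changed when a single library was left out. The number of all genes called fell too in each run named next, so these changes are not particular to the hosts. The PF-06873600 libraries are not compared in these tests and enter only through the shared estimate of the spread. Against indisulam, the lower hosts numbered 4 without indisulam library 1 or combination library 2. The interaction was higher in at most 1 host, in place of 3, without either palbociclib library, indisulam library 2, combination library 1 or either PF-06873600 library. It was lower in 3 hosts without palbociclib library 2 and in 2 without indisulam library 1 or either combination library.

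**Figure D4:**
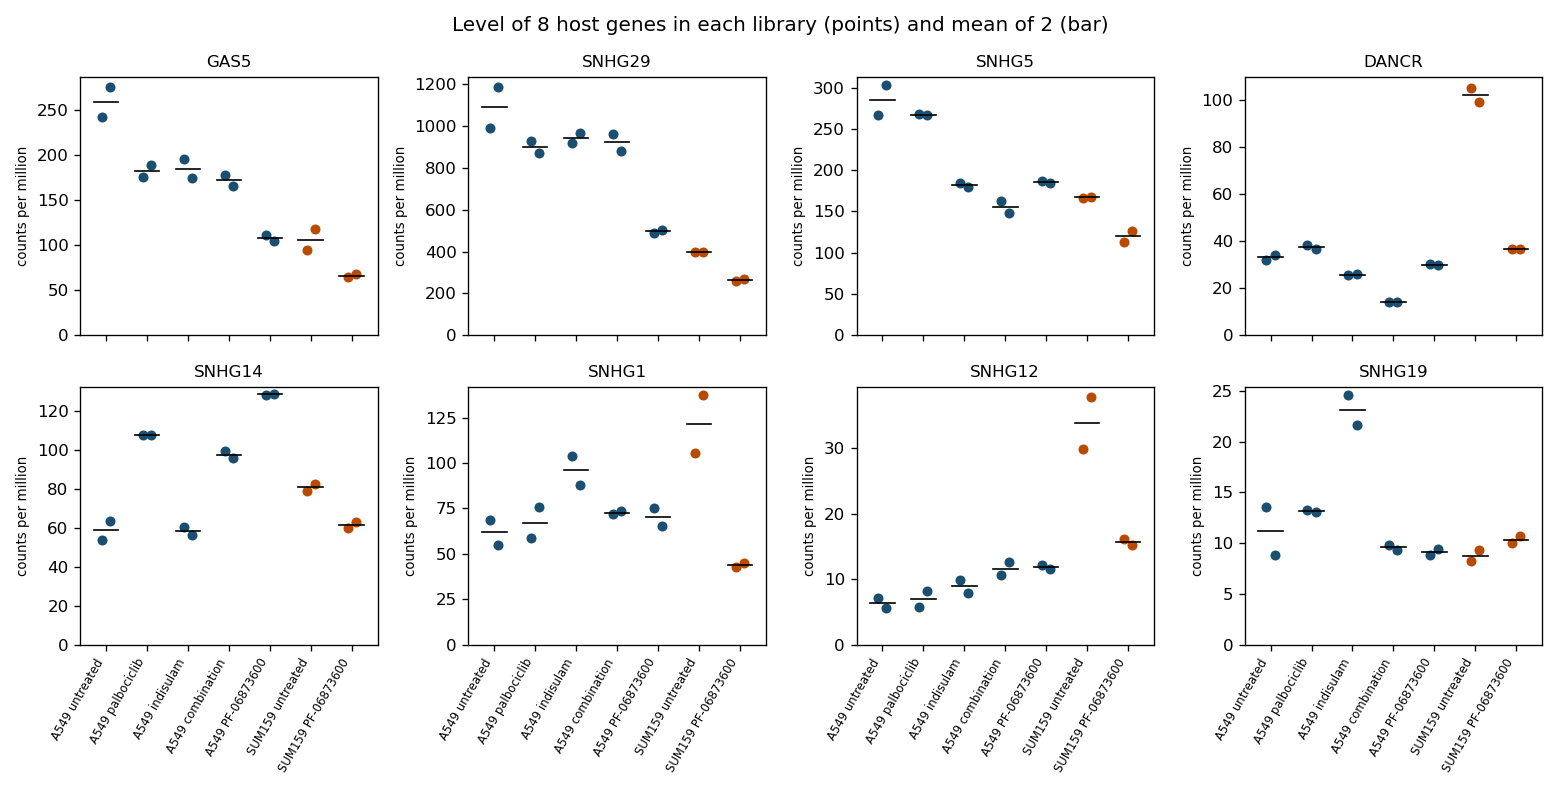
Level of 8 hosts in CPM in each library (points, blue for A549 and orange for SUM159) with the mean of the 2 libraries of each group as a bar, on axes that start at 0. DANCR is lowest in the combination group, SNHG14 is high in the 3 A549 groups that received a CDK inhibitor, and SNHG19 is highest with indisulam alone.

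PF-06873600 in A549 lowered GAS5, SNHG29 and SNHG5, and raised SNHG14 and SNHG16 among others. Of 27 tested hosts 6 were higher and 9 lower, where 28.5% of all genes tested were higher and 27.8% lower, and the median log2 fold change was -0.14 in the hosts and -0.01 in all genes tested. The host median was 0.06 without untreated library 1 and -0.24 without PF-06873600 library 1. GAS5 fell furthest among the called hosts, from 243 and 276 CPM to 111 and 104 (log2 fold change -1.27, SE 0.078, edgeR adjusted p = 5.51e-09). SNHG29 fell from 992 and 1187 CPM to 489 and 504 (log2 fold change -1.13, SE 0.077, edgeR adjusted p = 1.66e-08). EPB41L4A-AS1, a host of SNORA13 at chr5:112160526-112164818, fell from 27.3 and 25.3 CPM to 15.2 and 14.2 (log2 fold change -0.84, SE 0.10, edgeR adjusted p = 6.44e-06). In these 3 called hosts the treated libraries lay far below the untreated ones, which adds no support to the calls. GAS5 and SNHG29 were also lower under each of the other 3 A549 treatments, where the SNHG29 calls were lost without untreated library 2.
SNHG5 stood at 187 and 185 CPM with PF-06873600 (log2 fold change -0.62), and ZFAS1 at 34.4 and 32.6 CPM (log2 fold change -0.46). SNHG8, with SNORA24, and SNHG7, with SNORA17A and SNORA17B, fell by log2 fold changes of -0.76 and -0.69. SNHG3 and SNHG6 were the other lower hosts, at -0.60 and -0.47. SNHG3 went from 27.9 and 21.2 CPM to 17.4 and 15.1, and this call was lost with DESeq2, without untreated library 1 and without PF-06873600 library 2.
SNHG9 rose 2.72-fold, from 4.08 and 3.53 CPM to 10.6 and 10.1 (log2 fold change 1.44, SE 0.18, edgeR adjusted p = 7.98e-06). SNHG14 rose to 128 and 129 CPM from 53.7 and 63.5 (log2 fold change 1.13, SE 0.075, edgeR adjusted p = 1.14e-08). SNHG26 rose to 6.81 and 6.06 CPM (log2 fold change 1.00, edgeR adjusted p = 0.000553). Both libraries of each were above the untreated pair, as is likely for hosts picked from the called ones. SNHG12 stood at 12.2 and 11.5 CPM (log2 fold change 0.90), and SNHG4, a host of SNORA74A and SNORA74D whose exons overlap MATR3, at 49.2 and 41.5 CPM against 31.7 and 22.7 (log2 fold change 0.73, edgeR adjusted p = 0.00422). SNHG16 rose by a log2 fold change of 0.35, to 124 and 127 CPM. DANCR, at 30.2 and 29.7 CPM, was not called here (log2 fold change -0.14).

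In SUM159, PF-06873600 lowered most hosts. Of 29 tested hosts 19 were lower (65.5%) and 4 higher, where 35.6% of all 15055 genes tested were lower and 38.1% higher. The median log2 fold change was -0.47 in the hosts and 0.02 in all genes tested. Box C/D and box H/ACA hosts were both represented, with 9 of 14 and 9 of 12 lower, at medians of -0.40 and -0.80. In the same libraries the mesenchymal gene FN1 went from 3146 to 13737 CPM, PTPRC from 9.62 to 19.1 CPM and PECAM1 from 11.2 to 26.6 CPM, while VIM went from 4162 to 3609 CPM. CD3E and CD68, the other leukocyte markers, and VWF, the other endothelial one, were at or near 0 in both groups, and the part of these genes in the result was not tested.
SNHG3 fell furthest among the called hosts, from 59.6 and 80.2 CPM to 20.2 and 22.8 (log2 fold change -1.69, SE 0.12, edgeR adjusted p = 5.00e-09). DANCR fell from 105 and 99.0 CPM to 36.5 and 36.6 (log2 fold change -1.48, SE 0.062, edgeR adjusted p = 2.14e-11). SNHG1 fell from 106 and 137 CPM to 42.6 and 45.1 (log2 fold change -1.47, SE 0.096, edgeR adjusted p = 2.82e-09). Each of the 3 dropped to under 50% of its untreated level, and with treatment DANCR came close to its level in untreated A549. SNHG12 fell from 29.8 and 37.8 CPM to 16.1 and 15.2 (log2 fold change -1.11), and SNHG4 from 44.4 and 61.2 CPM to 25.8 and 25.2 (log2 fold change -1.05). SNHG10 fell from 6.75 and 7.95 CPM to 3.80 and 3.83 (log2 fold change -0.94).
GAS5 and SNHG29, the called hosts that fell most in A549, were lower in SUM159 too. GAS5 went from 94.4 and 118 CPM to 64.2 and 68.0 (log2 fold change -0.68, SE 0.083, edgeR adjusted p = 3.08e-06). SNHG29 went from 397 and 396 CPM to 261 and 271 (log2 fold change -0.58, SE 0.056, edgeR adjusted p = 2.33e-07). SNHG5 went from 167 in each untreated library to 113 and 127 CPM (log2 fold change -0.47).
EPB41L4A-AS1 stood at 14.7 and 15.0 CPM untreated and at 8.59 and 11.5 treated (log2 fold change -0.55). ZFAS1 stood at 23.6 and 27.7 CPM and fell to 19.4 and 19.1 (log2 fold change -0.41). Both were small next to the falls of SNHG3, DANCR and SNHG1. SNHG14 fell from 79.1 and 82.5 CPM to 60.1 and 62.7 (log2 fold change -0.39, edgeR adjusted p = 2.47e-05), and SNHG16 from 127 and 128 CPM to 97.4 and 98.9 (log2 fold change -0.38, edgeR adjusted p = 1.10e-05). SNHG17, with 4 RNAs of the SNORA71 family, fell by a log2 fold change of -1.15, though its untreated libraries stood at 23.9 and 38.8 CPM. SNHG7, SNHG15, SNHG6, SNHG32 and SNHG8 made up the rest, from -0.87 to -0.32.
The 4 higher hosts were weakly expressed. SNHG18, a host of SNORD123, rose from 3.80 and 4.70 CPM to 9.65 and 10.1 (log2 fold change 1.22, edgeR adjusted p = 4.91e-06). SNHG25, a host of SNORD104, rose from 1.69 and 2.13 CPM to 3.27 and 4.02 (log2 fold change 0.94), and SNHG9 from 4.28 and 5.14 CPM to 6.37 and 7.00 (log2 fold change 0.51). SNHG31 had 4 and 1 counts in untreated and 11 and 18 in treated libraries, a ratio of 4.93 with a 95% interval of 1.89 to 16.3 that covers counting error only. The calls of SNHG9 and SNHG31 were lost with DESeq2, which called 2 hosts higher. The number of lower hosts stayed within 1.5 times 19 in every alternative run.

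The response to PF-06873600 differed between the lines in 15 of 28 hosts. The difference was tested as an interaction term in the model of both lines, where 25.8% of all genes tested had a higher response in SUM159 and 27.2% a lower one. The response was lower in SUM159 for 11 hosts and higher for 4, and the median difference was -0.39 in the hosts and 0.04 in all genes tested. It was -0.61 in the hosts without untreated SUM159 library 1 and -0.23 without untreated SUM159 library 2. The A549 and SUM159 comparisons share no library.
Opposite calls were made for 4 hosts, SNHG4, SNHG12, SNHG14 and SNHG16, each higher in A549 and lower in SUM159, which is 4 of the 27 hosts tested in both lines against 10.5% of all 13607 genes so tested. SNHG12 had the largest difference, -2.01 (SE 0.23, edgeR adjusted p = 4.29e-07), followed by SNHG4 at -1.78 (SE 0.26, edgeR adjusted p = 9.45e-06), SNHG14 at -1.53 (SE 0.099, edgeR adjusted p = 2.02e-10) and SNHG16 at -0.72 (SE 0.075, edgeR adjusted p = 1.15e-07). All 4 were also called higher in untreated SUM159 than in untreated A549, from the same untreated libraries that enter their responses. The share of all genes with both patterns was not counted. With treatment SNHG12 stood at 12.2 and 11.5 CPM in A549 and at 16.1 and 15.2 CPM in SUM159.
Among hosts with no call in A549, SNHG1 differed by -1.65 (SE 0.18, edgeR adjusted p = 3.46e-07), DANCR by -1.34 (SE 0.097, edgeR adjusted p = 9.83e-10), SNHG17 by -1.33 and SNHG15 by -0.99. SNHG3, lower in both lines, fell further in SUM159 (-1.09, edgeR adjusted p = 0.00224). Of the 4 hosts with the opposite sign, GAS5 (0.59), SNHG29 (0.56) and SNHG8 (0.44) fell less in SUM159 than in A549, and SNHG25 (1.12) rose in SUM159 without a call in A549.
Lower in both lines were 9 hosts, EPB41L4A-AS1, GAS5, ZFAS1, SNHG3, SNHG5, SNHG6, SNHG7, SNHG8 and SNHG29. Of all genes tested in both lines, 11.8% were lower in both. The 9 were all of the hosts that fell in A549 and 9 of the 19 that fell in SUM159, while 42.1% of all genes that fell in A549 and were tested in SUM159 fell there too. SNHG9 was the host called higher in both, with a smaller rise in SUM159 (difference -0.93). For SNHG5, SNHG6, SNHG7, ZFAS1 and EPB41L4A-AS1 the difference between lines was not called, with values from -0.18 to 0.29. The log2 differences of ZFAS1 (0.05) and SNHG6 (-0.06) were the nearest to 0 of these.

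**Figure D5:**
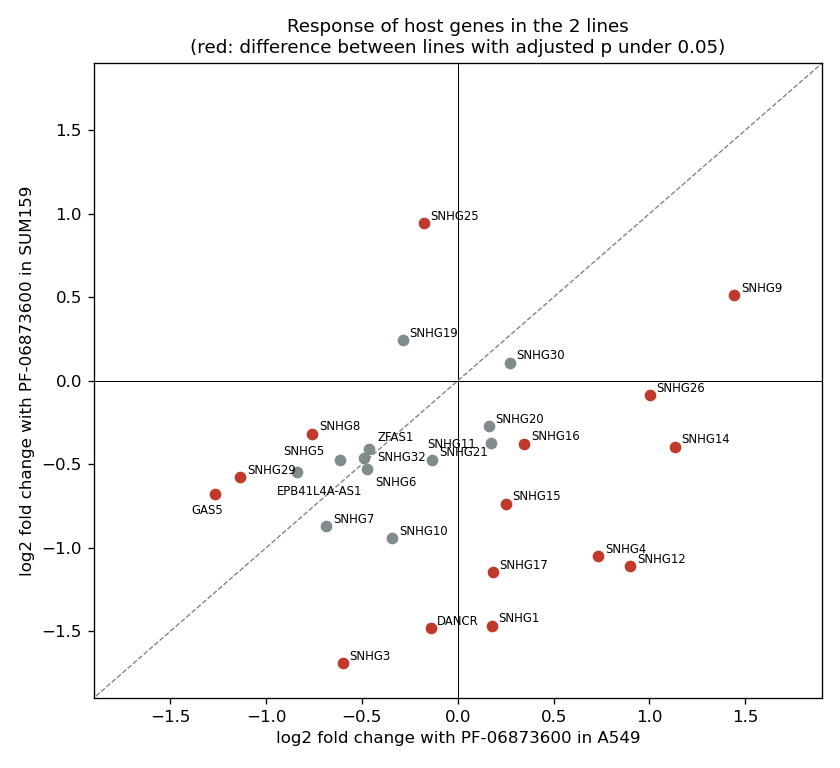
log2 fold change with PF-06873600 in A549 (horizontal) and SUM159 (vertical) for the 27 hosts tested in both lines, with hosts whose difference between lines had an edgeR adjusted p under 0.05 in red. SNHG4, SNHG12, SNHG14 and SNHG16 lie in the lower right quadrant, and 9 hosts called in both lines lie in the lower left.

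Across the 4 A549 treatments, 20 of 27 tested hosts were called at least once against untreated cells, against 81.6% of all genes tested, and these comparisons share the same 2 untreated libraries. GAS5 and SNHG29 were lower in all 4, as were 4.02% of all genes tested. The SNHG29 calls with palbociclib, indisulam and the combination were each lost without untreated library 2. SNHG14 was higher in the 3 groups that received a CDK inhibitor, and with indisulam alone stood at 60.6 and 56.3 CPM, inside the untreated range of 53.7 to 63.5 CPM. SNHG5, SNHG6 and SNHG8 were lower in the 3 groups other than palbociclib, where SNHG5 stood at 268 and 266 CPM. SNHG26 was higher in the same 3 groups, and SNHG16 and SNHG12 as well, though the SNHG12 call with indisulam was lost in 11 of 16 alternatives. The share of all genes with such patterns over 3 groups was not counted. The 7 tested hosts without a call in any A549 treatment were SNHG15, SNHG17, SNHG20, SNHG21, SNHG25, SNHG30 and SNHG32. SNHG21, which stood between 0.553 and 1.44 CPM in all libraries, was not called in any of the 10 comparisons. SNHG32 had untreated A549 libraries at 18.8 and 9.60 CPM, a gap as wide as any treatment difference seen for it there.

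Genes that act with or on the hosts were read from 4 lists. Against untreated cells, the shares of all genes tested that were higher and lower were 38.1% and 35.6% in SUM159 with PF-06873600, and in A549 28.5% and 27.8% with PF-06873600, 35.1% and 30% with the combination, 28% and 17.5% with indisulam and 8.3% and 7.4% with palbociclib. The medians of all genes lay between -0.01 and 0.08 in these 5 comparisons, against which the lists are read. Among 15 proteins of the small nucleolar ribonucleoprotein and its assembly, all 15 were lower in SUM159 with PF-06873600 (median log2 fold change -0.98), led by the methyltransferase FBL (-2.32) and GAR1 (-1.52). In A549 8 of the 15 were higher and 2 lower with PF-06873600 (median 0.22), with NOLC1 (0.60) among the higher and FBL (-0.61) among the lower. With the combination 11 of 15 were lower (median -0.29), FBL at -1.38. Palbociclib gave 2 higher and 3 lower, and indisulam gave 3 higher.
Of 18 factors of nonsense-mediated decay and the exon junction complex, 14 were lower in SUM159 with PF-06873600 (median -0.57), with DHX34 (-1.56) and MAGOHB (-1.25) the lowest. In A549, PF-06873600 gave 7 higher and 5 lower, the combination 6 and 5, indisulam 3 and 2, and palbociclib 2 lower. UPF1, the central helicase of this decay, stood at a log2 fold change of 0.45 with PF-06873600 in A549 and -0.53 in SUM159. Of 8 decapping and exonuclease genes, 6 were lower in SUM159 and 5 in A549 with PF-06873600, while indisulam gave 4 higher, the combination 3 higher and 2 lower, and the median with palbociclib was -0.06. XRN1, the cytoplasmic exonuclease, stood at -0.81 in A549 and at 0.13 in SUM159, where it was not called.
Protein-coding hosts of small nucleolar RNAs, 36 genes that are mostly ribosomal protein and translation factor genes and of which NOP56 and DKC1 are also on the first list, fell in most treatments. With PF-06873600, 25 were lower and 6 higher in A549 (median -0.54), and 34 lower and 1 higher in SUM159 (median -0.61). The combination gave 26 lower and 1 higher (median -0.55), indisulam 23 lower and 2 higher, and palbociclib 8 lower and 1 higher. With palbociclib the coding hosts called in either direction numbered 18 without untreated library 1 and 1 without either palbociclib library. RPL10 (-1.05) and TPT1 (-0.95) fell furthest in A549 with PF-06873600, and NCL (-1.42) and WDR43 (-1.22) in SUM159. The part of any of these genes in the host levels was not tested.

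The small nucleolar RNAs themselves were barely counted. Of the 151 annotated inside hosts, 133 were listed in the count tables and 116 of these had 0 counts in all 14 libraries. All of them together had 805 counts against 378865 on the hosts, and 354 of the 805 fell on SNORD104 inside SNHG25. The libraries were made from polyadenylated RNA, which leaves out most mature small nucleolar RNAs, so the values describe the host transcripts and not the RNAs they release.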

How the data were processed

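Per the labels and the study's methods, total RNA was turned into strand-specific libraries of polyadenylated RNA and read single-end. The submitters' notes name HISAT2 2.2.1, HTSeq and GRCh38. The authors deposited whole-number counts per Ensembl gene without normalization, with 9 summary lines per library that were left out of totals and tests. Annotation release and use of strand are not given in the sources used here. Totals ran from 13060374 to 21149256 counts, with 0 reads marked as duplicates, and intervals and floors cover counting error only.

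Symbols came from GENCODE 44 for 60370 of 60683 identifiers, and nested RNAs and promoters from RefSeq (GRCh38.p14). CPM was computed on the total of gene counts, and the level per kilobase on merged GENCODE exons. The main test was the edgeR 4.0.16 quasi-likelihood F test in R 4.3.3, with libraries scaled by total count, genes kept by filterByExpr and Benjamini-Hochberg adjustment over all genes tested at 0.05. The models held 10 A549 libraries, 4 SUM159 libraries or all 14. Standard errors were taken as the size of the log2 fold change over the root of its F statistic. An exact permutation test of 2 against 2 cannot go below a two-sided p of 0.33. Where the libraries of 2 groups are described as lying apart, the hosts had been called already. The share of all genes whose libraries lie apart was not counted.

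Groups came from the sample labels. The alternatives were TMM, DESeq2 1.42.0, every gene kept, genes kept at a mean of 50 counts, a replicate block, the compared groups alone and leaving out each library. Scripts were tested on simulated data with 200 changed genes in each of the comparisons named next. Of the calls made, 11.5% were false for SUM159 with PF-06873600, 5.47% for A549 with PF-06873600 and 4.28% between the untreated lines. The SUM159 share lay above the adjusted p threshold, so calls in SUM159 may include more false ones than that threshold states. Values in every library are given for hosts among the 4 largest called changes of a treatment comparison, for GAS5, SNHG1, ZFAS1, EPB41L4A-AS1 and DANCR, and for hosts called in opposite directions. Other hosts with such values, SNHG18, SNHG25, SNHG17, SNHG32 and SNHG21, were picked after their values were seen. The hosts, lists and tests were chosen with earlier results of these data known.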

Additional observations from a re-analysis of the deposited data

Results flagged for a closer look

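The response to PF-06873600 differed between SUM159 and A549 by the interaction term of the edgeR model of both lines in 15 hosts, with the value as the log2 response in SUM159 minus that in A549. The response was lower in SUM159 for SNHG12 (-2.01), SNHG4 (-1.78), SNHG1 (-1.65), SNHG14 (-1.53), DANCR (-1.34), SNHG17 (-1.33), SNHG3 (-1.09), SNHG26 (-1.09), SNHG15 (-0.99), SNHG9 (-0.93) and SNHG16 (-0.72). It was higher in SUM159 for SNHG25 (1.12), GAS5 (0.59), SNHG29 (0.56) and SNHG8 (0.44). Of the 28 hosts tested, 39.3% had a lower response in SUM159 and 14.3% a higher one. Of all 17279 genes tested, 27.2% had a lower response and 25.8% a higher one. SNHG26 lost its call with DESeq2, without untreated A549 library 2, without untreated SUM159 library 2 and without SUM159 PF-06873600 library 2, and the other 14 kept theirs in every alternative run.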

How the results depend on the processing

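Of 2176 alternative values for 136 called changes of hosts, 2020 kept their direction and side of the threshold, 156 were no longer called and 0 changed sign. The cause of each change was not tested. Over all genes, calls with palbociclib numbered 2478 in the main run, 2415 with TMM, 1589 with DESeq2 and 949 with the compared groups alone. With indisulam they numbered 7177, 7171, 5285 and 5325 in the same order. With DESeq2 the hosts called higher numbered 1 with palbociclib, 4 with indisulam and 2 in SUM159 with PF-06873600, and those called lower numbered 5 for the combination against indisulam and 3 for the interaction. DESeq2 called 2 ribonucleoprotein, 1 decay and junction factor and 5 coding host genes with palbociclib, 3 decay and junction factors and 2 decapping genes with indisulam, and 2 decapping genes in A549 with PF-06873600. TMM called 1 decay and junction factor and 3 coding hosts with palbociclib and 6 ribonucleoprotein genes with indisulam. With only the compared groups in the model, palbociclib gave 1 higher and 1 lower host, 0 ribonucleoprotein genes, 0 decay and junction factors and 1 coding host, and indisulam 2 decay and junction factors. A mean of at least 50 counts gave 1 decapping gene with palbociclib.

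Replicate numbers were shared by all groups, and the main test did not treat them as pairs. The values below do not settle whether same-numbered libraries were paired. Deviations of same-numbered libraries correlated from -0.217 (palbociclib and untreated A549) to 0.166 (indisulam and untreated A549). With a replicate block, palbociclib gave 1 decay and junction factor and 3 coding hosts. No count of hosts moved by over 1.5 times with the block, and lower hosts in SUM159 numbered 21. With the palbociclib numbers crossed, a choice made after seeing the data, 1 decapping gene was called and the genes called with palbociclib went from 2478 to 3023. With the untreated SUM159 numbers crossed, genes called between the untreated lines went from 13607 to 13575.

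Leaving out 1 library at a time gave ranges, with the smaller group assumed to vary like the others. With palbociclib, higher hosts ranged from 1 to 6, lower hosts from 1 to 4, ribonucleoprotein genes from 0 to 5, decay and junction factors from 0 to 6, decapping genes from 0 to 1 and coding hosts from 1 to 18. With indisulam, higher hosts ranged from 4 to 11, ribonucleoprotein genes from 1 to 5 and decay and junction factors from 2 to 9. Higher hosts with the combination ranged from 4 to 8 and decapping genes from 3 to 5, lower hosts of the combination against indisulam from 4 to 8, the interaction from 0 to 4 higher and 2 to 6 lower, and decapping genes in A549 with PF-06873600 from 2 to 6. Depth limits SNHG18, SNHG22, SNHG27, SNHG28 and SNHG31, which were at or under 3 counts in most or all libraries.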
